A study of Homo sapiens with 8 samples.

Results

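The 9 transcripts described here encode enzymes of the methionine cycle and of S-adenosylmethionine (SAM) synthesis, together with a regulatory subunit and paralogs of these enzymes. They are AHCY, AHCYL1, AHCYL2, MAT1A, MAT2A, MAT2B, MTR, MTRR and BHMT2. They were chosen by name from the 57500 genes of the deposited count table, and 8 of the 9 had enough counts to be tested, among 19171 genes tested in all. RNAseq was performed on HEK293T cells, an established line from human embryonic kidney that expresses the SV40 large T antigen. The DZNep group (n = 4) was treated with 100 µM DZNep (3-deazaneplanocin A, an adenosine analog that inhibits AHCY) for 48 h and the Control group (n = 4) with an unnamed vehicle for the same time, and both carry replicate numbers 1 to 4, which the study calls biological replicates. All 8 libraries are of 1 cell line at 1 dose and 1 time, and the sample labels name DMEM as the medium whereas the methods name RPMI.

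In the methionine cycle, methionine adenosyltransferases join methionine to ATP to form SAM, the methyl donor of most cellular methylation. Each methyl transfer leaves S-adenosylhomocysteine (SAH), which inhibits methyltransferases and is split by AHCY into adenosine and homocysteine. Homocysteine is methylated back to methionine by MTR with a methyl group from folate, or by betaine-dependent enzymes that are best known from liver and kidney.

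MAT1A and MTR were the only members past both thresholds, in opposite directions. The upstream sequences of these genes, and of MAT2A as the paralog of MAT1A, are shown so that annotated start sites can be compared. The counts are per gene and do not tell which start site was used. The sequences are the 250 bases before a RefSeq start in GRCh38.p14, read 5′ to 3′ on the strand of the gene, with each CG dinucleotide in capitals. MAT1A is on the minus strand at chr10:80289659-80289908, MAT2A on the plus strand at chr2:85538918-85539167 and MTR on the plus strand at chr1:236795031-236795280. MTR has another RefSeq entry at chr1:236795042-236795291, which is not printed. The printed MTR stretch runs past the GENCODE start of the gene at 236795260.
MAT1A: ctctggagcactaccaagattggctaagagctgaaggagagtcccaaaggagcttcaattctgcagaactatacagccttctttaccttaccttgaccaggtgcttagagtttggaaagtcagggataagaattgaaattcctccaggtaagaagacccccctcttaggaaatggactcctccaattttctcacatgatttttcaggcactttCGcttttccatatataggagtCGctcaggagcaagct
MAT2A: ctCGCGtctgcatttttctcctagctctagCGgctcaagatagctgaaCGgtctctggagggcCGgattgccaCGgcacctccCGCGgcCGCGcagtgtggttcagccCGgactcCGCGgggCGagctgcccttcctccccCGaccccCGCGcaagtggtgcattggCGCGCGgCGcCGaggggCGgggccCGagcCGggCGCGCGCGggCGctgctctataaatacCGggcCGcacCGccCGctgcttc
MTR: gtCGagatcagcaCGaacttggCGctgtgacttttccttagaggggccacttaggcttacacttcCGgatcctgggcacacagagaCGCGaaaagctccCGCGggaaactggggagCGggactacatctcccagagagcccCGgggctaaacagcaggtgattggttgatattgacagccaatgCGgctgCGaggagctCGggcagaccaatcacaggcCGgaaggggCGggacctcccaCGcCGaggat
The MAT1A sequence held 2 CG dinucleotides and 44.8% G and C, against 34 and 71.6% for MAT2A and 17 and 60.4% for MTR. The median of 35116 promoters was 11 CG dinucleotides and 58% G and C, and 14.7% of them held fewer CG dinucleotides than MAT1A, 93.2% fewer than MAT2A and 61.0% fewer than MTR. A search on both strands found the motif TATAAA in the MAT2A sequence and in 10.7% of all promoters. The motif CACGTG, held by 6.34% of all promoters, was in none of the 3 sequences. The motif TGATGNAA, held by 3.14% of all promoters, was in none of them either. RefSeq promoters were matched for 8 of the 9 members, all but MTRR.

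The libraries held between 25043058 and 44902779 counts. Mitochondrially encoded transcripts took 7.04% to 13.7% of the counts in replicates 1 and 4 of both groups and 3.02% to 4.44% in replicates 2 and 3. Of 6 genes chosen as markers of HEK293T cells all were detected in every library, with a summed level of 977 to 1663 CPM (counts scaled to a common library size) in the Control and 1612 to 2033 CPM in the DZNep group, and KRT8 alone passed both thresholds, with a log2 fold change of 2.44.

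A transcript was called if its log2 fold change exceeded 1 in size with an adjusted p-value under 0.05 in the quasi-likelihood test of edgeR. Of the 8 members tested, 1 was called higher (MAT1A) and 1 lower (MTR). Of all genes tested, 24.2% were called, 10.6% as higher and 13.5% as lower. The same 2 members were the only ones with an adjusted p-value under 0.05 whatever the fold, which 40.8% of all genes had, 19.1% as higher and 21.8% as lower. In the fit with the replicate block, 5 of the 8 had one, against 59% of all genes, and both thresholds together left the 2 members, against 26% of all genes. DZNep and Control libraries did not overlap in normalized count for 3 members (MAT1A higher, AHCY and MTR lower), against 38.9% of all genes, 19.5% as higher and 19.4% as lower. The normalized counts by library show the distance between the groups for MAT1A and MTR and the width of the Control group for MAT2A.

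**Figure D1:**
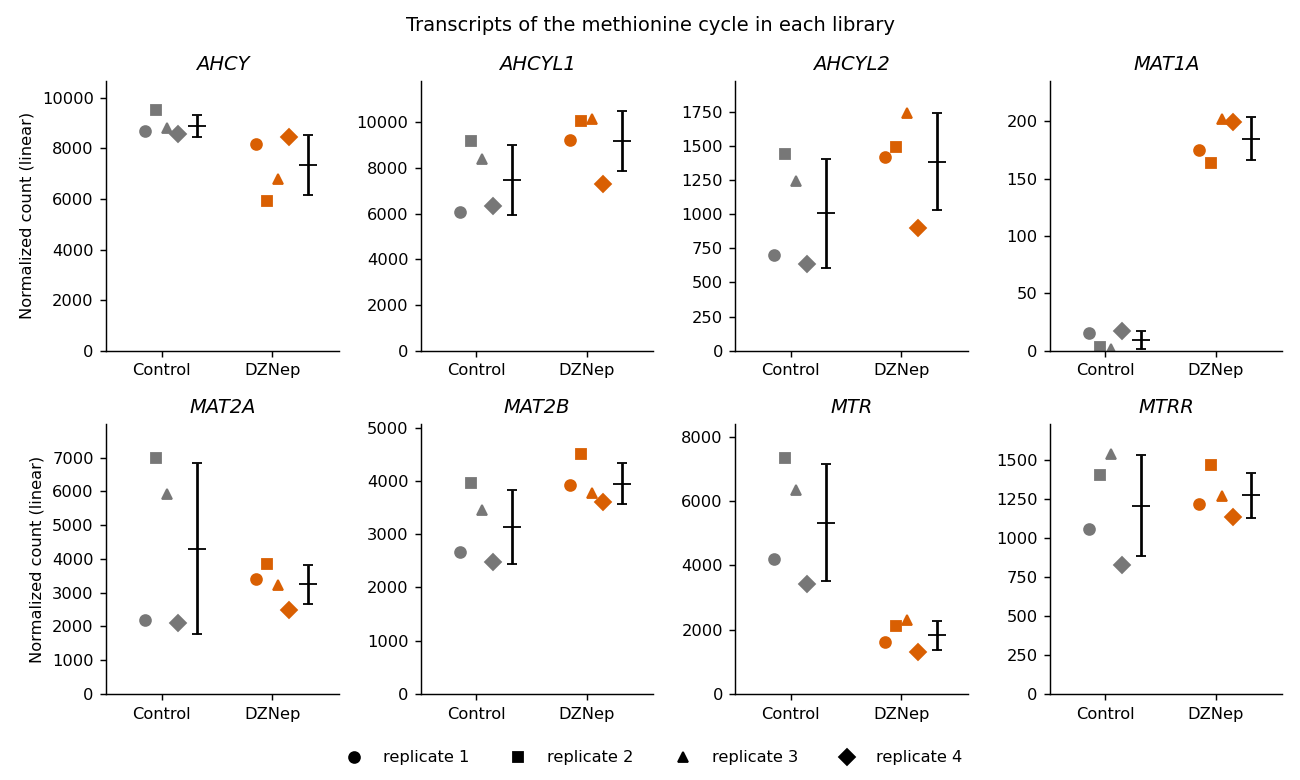
Normalized counts (linear axis from 0) of the 8 members tested, in each library of the Control (gray) and DZNep (orange) groups. Symbols give the replicate number, and the black bars beside them the mean ± SD (n = 4). For MAT1A the DZNep libraries lie between 163 and 202 and the Control libraries between 1.79 and 17.2, whereas for MTRR the groups overlap.

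SAM synthesis was represented by MAT1A, MAT2A and MAT2B. MAT1A, the methionine adenosyltransferase known from adult liver (ENSG00000151224, GRCh38 chromosome 10 from 80271820 to 80289658, minus strand), was barely detected in the Control and rose in every DZNep library. The Control replicates 1 to 4 held 10, 4, 2 and 16 MAT1A reads, or 15.4, 3.57, 1.79 and 17.2 normalized counts. The DZNep replicates 1 to 4 held 193, 203, 234 and 177 reads, or 175, 163, 202 and 199 normalized counts. The lowest DZNep library thus lay far above the highest Control library. The Control mean was 9.49 ± 7.93 normalized counts and the DZNep mean 185 ± 18.7 (SD, n = 4 each), a ratio of means of 19.5. The log2 fold change of 4.34 (SE 0.52, 95% interval 3.19 to 5.49) had an adjusted p-value of 0.000151 (edgeR). It was higher than the log2 fold change of 99.3% of the genes tested. MAT1A passed the count filter only through its DZNep libraries, so its place among the genes tested depends on their level and is a description only.

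The size of the MAT1A difference depends on the few Control reads, 32 in all 4 libraries against 807 in the DZNep group. Within replicate numbers 1 to 4 the normalized count was 11.4-fold, 45.8-fold, 113-fold and 11.6-fold higher. The 95% counting intervals of these ratios were 6.04 to 24.1, 17.6 to 170, 30.9 to 937 and 6.94 to 20.7. Control replicates 1 and 4, with the most MAT1A reads per library, were also those with more mitochondrial reads, a relation whose part in the result was not tested. With replicates 2 and 3 alone the log2 fold change was 6.0 (adjusted p = 2.61e-06) and with replicates 1 and 4 alone 3.51 (adjusted p = 2.49e-05), both from edgeR's quasi-likelihood test. These subsets were chosen after seeing the data, so their p-values are only descriptive. In bulk RNA, more cells with the transcript cannot be told apart from more transcript per cell.

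Because MAT1A is best known from hepatocytes, 8 hepatocyte markers were examined beside it. ALB, the gene of serum albumin, had 0 to 2 reads per Control library and 1 to 8 per DZNep library. APOB had 0 reads in every Control library and 0 to 2 in a DZNep library. TTR had 0 to 1 and 8 to 18 reads, and HNF4A, a transcription factor of hepatocytes, 0 to 4 and 5 to 13, so that both were higher in every DZNep library than in any Control library. APOA1 had 0 to 7 and 1 to 17 reads and SERPINA1 3 to 17 and 5 to 18. Only TAT and CPS1 passed the filter, with adjusted p-values of 0.566 and 0.962 in edgeR. The summed level of the 8 markers was 25.9 to 50.6 CPM in the Control and 29.7 to 55.9 CPM in the DZNep group, most of it CPS1. The part of these markers in the MAT1A difference was not tested. Of 5 markers of blood cells, 3 were tested, with adjusted p-values of 0.359 to 0.470 in edgeR, HBB was at 0 in all libraries, and CD3E was at 0 reads in the Control and at 9 to 36 in the DZNep libraries.

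MAT2A, the catalytic methionine adenosyltransferase outside the liver (ENSG00000168906, chromosome 2 from 85539168 to 85545281, plus strand), varied more among the Control libraries than between the groups. Its normalized counts were 2194, 7003, 5913 and 2107 in Control replicates 1 to 4 and 3419, 3852, 3231 and 2486 in DZNep replicates 1 to 4. The DZNep libraries lay inside the Control range. Within replicate numbers 1 to 4 the log2 ratio of DZNep to Control was 0.64, -0.86, -0.87 and 0.24. With replicates 2 and 3 alone, MAT2A fell with a log2 fold change of -0.90 (adjusted p = 0.000423), and with replicates 1 and 4 alone it had one of 0.48 (adjusted p = 0.0800), both from edgeR's quasi-likelihood test. These subsets were chosen after seeing the data and separate the high from the low Control libraries, so their p-values are only descriptive. The fit over all libraries gave -0.43 (95% interval -1.27 to 0.40).

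The exons of MAT2A share 562 bases, 12.5% of their length, with exons of GGCX on the opposite strand. GGCX, the vitamin K-dependent gamma-glutamyl carboxylase, had 1662 ± 501 normalized counts in the Control and rose to 4472 ± 680 with DZNep (SD, n = 4 each), a log2 difference of 1.40 (SE 0.22, edgeR, adjusted p = 0.000771). Whether the counting used strand is not given in the sources used here, so reads in the shared stretch cannot be told apart, and their part in the MAT2A values was not tested. The pseudogene MAT2AP1 had at most 1 read in a library.

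MAT2B encodes the regulatory subunit that binds the MAT2A enzyme (ENSG00000038274, chromosome 5 from 163503114 to 163519558, plus strand). Its normalized counts were 2669, 3972, 3461 and 2480 in Control replicates 1 to 4 and 3919, 4505, 3774 and 3615 in DZNep replicates 1 to 4. Each DZNep library lay above the Control library of the same number, by log2 ratios of 0.55, 0.18, 0.12 and 0.54, although the groups overlapped. In edgeR, its log2 fold change was 0.30 (adjusted p = 0.196) without the replicate block and 0.32 (adjusted p = 0.0297) with it.

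MAT1A and MAT2A were set against each other as the share of MAT1A in their sum, with counts divided by the length of all annotated exons. The share was 0.853%, 0.0624%, 0.0371% and 0.989% in Control replicates 1 to 4, and 5.90%, 4.94%, 7.11% and 8.93% in DZNep replicates 1 to 4. Every DZNep library was thus above every Control library, with means of 0.485% ± 0.506 and 6.72% ± 1.72 (SD, n = 4 each), and MAT2A still made up over 91% of the sum in each DZNep library. For counts not divided by length, the exact (Clopper-Pearson) 95% interval of the share was 0.00367% to 0.109% in Control replicate 3 and 6.40% to 8.54% in DZNep replicate 4, which covers counting error only. The sum of MAT1A and MAT2A was 25.7 ± 14.9 CPM per kb of exon in the Control and 20.3 ± 3.26 in the DZNep group (SD, n = 4 each), and the groups overlapped. The MAT2A to MAT2B ratio of counts was 0.822, 1.76, 1.71 and 0.850 in Control replicates 1 to 4. In DZNep replicates 1 to 4 it was 0.872, 0.855, 0.856 and 0.688. Control replicates 1 and 4 thus lay inside the DZNep range, and Control replicates 2 and 3 lay above it. The difference of -0.56 in the mean log2 ratio had a two-sided exact permutation p of 0.286, or 0.314 after Benjamini-Hochberg adjustment over the 5 ratios tested.

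**Figure D2:**
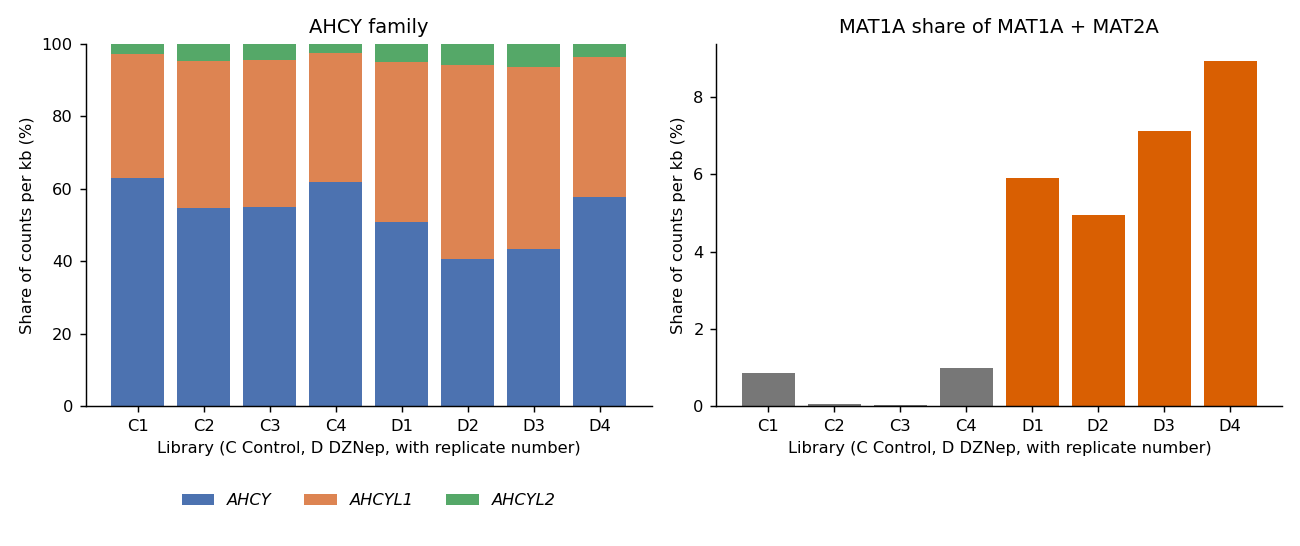
Share of counts per kb of exon, in percent, for each library (C, Control, D, DZNep, with the replicate number). The left panel stacks AHCY, AHCYL1 and AHCYL2 to 100%, and the right panel gives MAT1A as a share of MAT1A and MAT2A on an axis that ends near 9%. MAT1A stays under 1% in the Control libraries and lies between 4.94% and 8.93% in the DZNep libraries, and AHCY takes 54.6% to 63.1% in the Control and 40.7% to 57.8% in the DZNep libraries.

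SAH removal was represented by AHCY, and its paralogs AHCYL1 and AHCYL2 were examined beside it. AHCY is the hydrolase that DZNep inhibits. AHCYL1, also known as IRBIT, binds inositol trisphosphate receptors and ion transporters. AHCYL2 is related to AHCYL1, and neither of these paralogs is known to hydrolyze SAH. None of the 3 transcripts passed the thresholds. AHCY (ENSG00000101444, chromosome 20 from 34280268 to 34311802, minus strand) had 8684, 9513, 8805 and 8554 normalized counts in Control replicates 1 to 4 and 8190, 5934, 6776 and 8444 in DZNep replicates 1 to 4. The DZNep libraries were all below the Control libraries, with replicates 2 and 3 lowest and replicate 4 just under the lowest Control library. The 95% interval of its log2 fold change was -0.65 to 0.04 (edgeR, adjusted p = 0.142), and the fit with the replicate block gave an adjusted p-value of 0.0443. With replicates 2 and 3 alone the log2 fold change was -0.56 (edgeR, adjusted p = 0.00651), and with replicates 1 and 4 alone it was -0.03 (edgeR, adjusted p = 0.902). These subsets were chosen after seeing the data, so their p-values are only descriptive. The 6 AHCY pseudogenes in the annotation had at most 3 reads in a library, and a lncRNA that shares 139 exon bases with AHCY on the same strand (3.57% of the AHCY exons) had 10 to 40 reads in the Control and 1 to 5 in the DZNep libraries.

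AHCYL1 (ENSG00000168710, chromosome 1 from 109984765 to 110023742, plus strand) had 6062, 9153, 8399 and 6309 normalized counts in Control replicates 1 to 4 and 9231, 10067, 10120 and 7306 in DZNep replicates 1 to 4. It was higher in the DZNep library of all 4 pairs, and the groups overlapped. The log2 fold change of 0.27 had a 95% interval of -0.14 to 0.68 (edgeR, adjusted p = 0.276, or 0.0565 with the replicate block). AHCYL2 (ENSG00000158467, chromosome 7 from 129225030 to 129430211, plus strand) was the least abundant of the 3, with a normalized count of 1006 ± 399 in the Control and 1385 ± 353 in the DZNep group (SD, n = 4 each). The single Control libraries were at 700, 1444, 1242 and 637, and the DZNep libraries at 1418, 1489, 1737 and 897. Its log2 fold change was 0.43 (95% interval -0.22 to 1.09, edgeR, adjusted p = 0.265), and 0.48 (adjusted p = 0.0107) with the replicate block. With each library left out in turn it lay between 0.26 and 0.66, with adjusted p-values of 0.0916 to 0.513 (edgeR).

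Per length, AHCY made up 58.7% ± 4.48 of the 3 transcripts in the Control and 48.2% ± 7.69 in the DZNep group (SD, n = 4 each). The share of AHCYL1 was 37.7% ± 3.45 and 46.6% ± 6.53, and that of AHCYL2 3.66% ± 1.05 and 5.16% ± 1.24. The sum of the 3 was 105 ± 12.0 CPM per kb in the Control and 102 ± 5.76 in the DZNep group, so that the total differed by less than the spread between replicates. The AHCYL1 to AHCY ratio of counts was 0.698, 0.962, 0.954 and 0.738 in Control replicates 1 to 4 and 1.13, 1.70, 1.49 and 0.865 in DZNep replicates 1 to 4. It was thus higher with DZNep in 4 of 4 pairs, but DZNep replicate 4 lay inside the Control range. The mean log2 ratio was 0.60 higher in the DZNep group (two-sided exact permutation test, p = 0.0857, or 0.190 adjusted over the 5 ratios). For AHCYL2 to AHCY the difference was 0.80 (exact permutation p = 0.114, adjusted 0.190), higher in 4 of 4 pairs. For AHCYL2 to AHCYL1 it was 0.20 (exact permutation p = 0.314, adjusted 0.314), higher in 3 of 4 pairs. None of these ratios passed the threshold, and the length used for each gene moves the shares.

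Remethylation of homocysteine was represented by MTR, MTRR and BHMT2. MTR, the cobalamin-dependent methionine synthase (ENSG00000116984, chromosome 1 from 236795260 to 236921278, plus strand), fell in every pair. Its normalized counts were 4205, 7331, 6349 and 3424 in Control replicates 1 to 4 and 1610, 2110, 2293 and 1302 in DZNep replicates 1 to 4. The highest DZNep library lay below the lowest Control library, and within numbers 1 to 4 the DZNep library held 0.383, 0.288, 0.361 and 0.380 of the Control value. These ratios lay close together, although the Control libraries themselves were far apart. The log2 fold change was -1.57 (95% interval -2.17 to -0.96; adjusted p = 0.00125 from edgeR's quasi-likelihood test), and the replicate block left it at -1.54 with a standard error of 0.12 in place of 0.27.

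MTRR encodes the reductase that returns oxidized cobalamin on MTR to its active form (ENSG00000124275, chromosome 5 from 7851186 to 7906025, plus strand). Its normalized counts were 1059, 1405, 1535 and 823 in Control replicates 1 to 4 and 1219, 1469, 1270 and 1132 in DZNep replicates 1 to 4. The DZNep libraries lay inside the Control range. The log2 fold change was 0.05 with a 95% interval of -0.40 to 0.50, so a change of the size seen for MTR lies outside the interval. Its exons share 100 bases, 1.54% of their length, with FASTKD3 on the opposite strand, which was not called. The ratio of MTR to MTRR counts was 3.97, 5.22, 4.13 and 4.16 in Control replicates 1 to 4 and 1.32, 1.44, 1.81 and 1.15 in DZNep replicates 1 to 4. All DZNep libraries were below all Control libraries. The mean log2 ratio was lower by 1.62 in the DZNep group, with a two-sided exact permutation p of 0.0286, the smallest that 4 libraries against 4 allow, and 0.143 after adjustment over the 5 ratios.

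BHMT2 (ENSG00000132840, chromosome 5 from 79069767 to 79090069, plus strand), a homocysteine methyltransferase that takes its methyl group from S-methylmethionine, was close to undetected. It had 0, 0, 1 and 1 reads in Control replicates 1 to 4 and 0, 0, 0 and 1 in DZNep replicates 1 to 4, and was not tested. In the library with the fewest counts, 0 reads leave room for a share of at most 1.2e-05%. BHMT, the betaine-dependent enzyme, was not tested either. It had 2.58 ± 4.47 normalized counts in the Control (SD, n = 4), with 9.25 in the highest library, and was at 0 in every DZNep library. A difference of BHMT2 was not detectable at this depth.

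**Figure D3:**
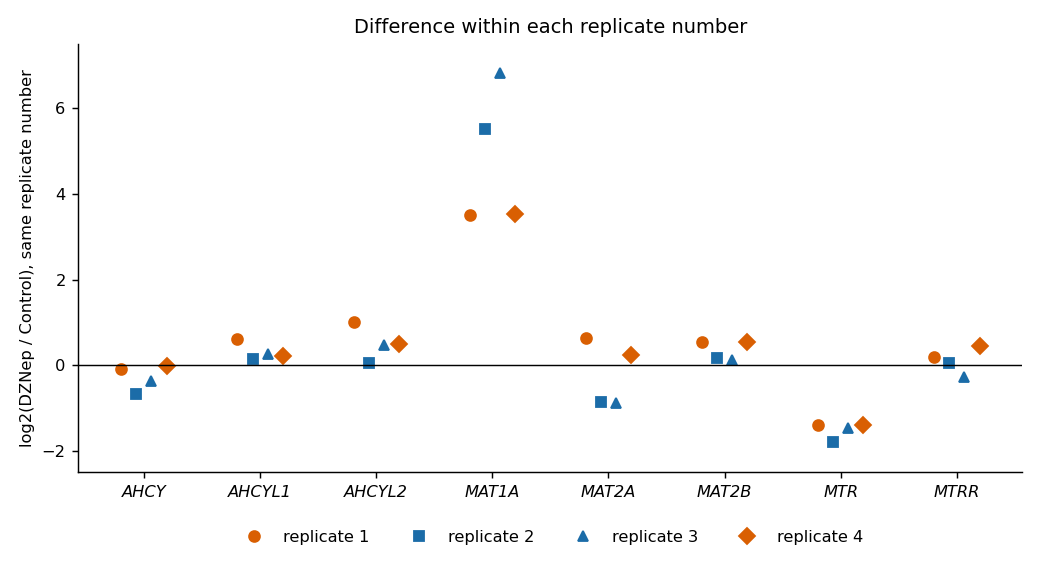
Log2 ratio of the normalized count in the DZNep library to that in the Control library of the same replicate number, for the 8 members tested. Symbols give the replicate number, in orange for replicates 1 and 4 and in blue for replicates 2 and 3, and the line marks no difference. MTR lies below the line in all 4 pairs (-1.80 to -1.39), MAT1A above it (3.51 to 6.82), and MAT2A on both sides.

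Levels were compared between genes in CPM per kb of exon. In the Control, AHCY was highest at 61.0 ± 2.75, followed by AHCYL1 at 39.7 ± 8.06, MAT2A at 25.6 ± 15.0, MAT2B at 9.65 ± 2.11, MTR at 7.38 ± 2.51, MTRR at 4.95 ± 1.33 and AHCYL2 at 3.92 ± 1.55 (SD, n = 4 each). MAT1A was at 0.0692 ± 0.0579, below every other member but BHMT2. The library ranges of neighbors in this order overlapped for AHCYL1 and MAT2A, MAT2B and MTR, MTR and MTRR, and MTRR and AHCYL2, so those places are not separated by the spread. In the DZNep group the order began with AHCY at 49.4 ± 8.0 and AHCYL1 at 47.8 ± 6.97, which overlapped. MTR, at 2.49 ± 0.623, had moved below AHCYL2 (5.30 ± 1.37) and MTRR (5.13 ± 0.575), and its range was separate from theirs. MAT1A, at 1.32 ± 0.133, was still below MTR, with no overlap. With the longest transcript as the length, AHCYL2 and MTRR exchanged places in the DZNep group.

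Deviations of each library from its group mean showed which members varied together. Over the 8 libraries, the correlations of these deviations were 0.81 to 0.98 for the 15 pairs among AHCYL1, AHCYL2, MAT2A, MAT2B, MTR and MTRR. MAT1A had correlations of -0.93 to -0.74 with these 6 genes, and AHCY had correlations of -0.30 to 0.01 with them. The Control libraries held only 2 to 16 MAT1A reads, so its correlations rest in part on few reads. All these correlations are a description, since the members come from the same libraries and share their depth and their normalization. Libraries with the higher mitochondrial share, replicates 1 and 4, were the low ones for the 6 genes in the Control, and the part of that share in the pattern was not tested. Among the 10769 genes whose log2 CPM averaged 3 or more, the log2 values of ATG2B, PRKACB, LAMB1, USO1 and TBC1D31 were the most like those of MTR over the 8 libraries, with Pearson correlations of 0.998, 0.997, 0.995, 0.995 and 0.995. For MAT2A they were LRRC40, PIGK, TMEM38B, NEK4 and SUV39H2, with 0.983, 0.982, 0.980, 0.978 and 0.976. These correlations include the difference between the groups.

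The surroundings of the cycle were followed in 4 lists of 42 genes, 41 of them tested. Of these, 4 were higher and 10 were lower, where 10.6% of all genes tested were higher and 13.5% were lower. At an adjusted p under 0.05 alone, 7 were higher and 15 were lower, where 19.1% of all genes tested were higher and 21.8% were lower. The median log2 fold change was -0.28, against -0.03 for all genes tested. A list is described by its counts and its median, with no test of the list. In the list of SAM use, transport and SAH removal, 0 of 11 genes were higher and 3 were lower (1 and 4 at an adjusted p under 0.05 alone), with a median of -0.28. PEMT, which consumes SAM to make phosphatidylcholine, had 1387 ± 444 normalized counts in the Control and fell to 91.4 ± 9.0 with DZNep (SD, n = 4 each), which is -3.95 on the log2 scale (SE 0.26). GAMT, the methyltransferase of creatine synthesis, and MTAP, which recycles methylthioadenosine, had log2 fold changes of -1.14 and -1.08. The groups overlapped for GAMT (edgeR, adjusted p = 0.0425) but not for MTAP (edgeR, adjusted p = 0.000354). METTL16, an RNA methyltransferase whose known targets include the MAT2A transcript, was higher with a log2 fold change of 0.79 (edgeR, adjusted p = 0.0025), short of the fold threshold. ADK, the adenosine kinase that removes the other product of SAH hydrolysis, had a log2 fold change of -0.01.

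In the list of methionine and betaine supply, 3 of 11 genes tested were higher and 5 were lower, with a median log2 fold change of -0.51. CHDH, which begins the oxidation of choline to betaine, had a log2 fold change of -2.54, from 960 ± 79.9 in the Control to 168 ± 32.8 with DZNep (normalized counts, SD, n = 4 each). DMGDH and SARDH, the mitochondrial dehydrogenases of dimethylglycine and sarcosine, fell by 2.38 and 1.28 on the log2 scale, and SLC6A12, a betaine transporter, rose by 1.58 from 17.1 ± 2.17 normalized counts. DMGDH overlaps the BHMT2 locus on the opposite strand. The other 4 called genes carry large neutral amino acids such as methionine, and went both ways. SLC7A8 and SLC43A2 had log2 fold changes of 1.27 and 1.15, and SLC7A5 and SLC43A1 had log2 fold changes of -1.21 and -1.04.

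The other 2 lists covered folate and cobalamin genes, which are not limited to the cofactor supply of MTR. Of 10 folate genes, 1 was higher and 1 was lower, with a median of -0.35. At an adjusted p under 0.05 alone 2 were higher and 4 were lower, against 19.1% and 21.8% of all genes tested. MTHFD1, which interconverts one-carbon units on folate, fell from 16558 ± 962 to 7631 ± 692 normalized counts, a log2 fold change of -1.14. FOLR1, a folate receptor, rose from 18.0 ± 12.7 to 62.0 ± 28.7, a log2 fold change of 1.77 (SD, n = 4 each), although its groups overlapped. With 7.17 normalized counts in its lowest Control library, FOLR1 passed the count filter only with its DZNep libraries. Its call, which is among those counted as higher, is thus a description only. Of 9 cobalamin genes, 0 were higher and 1 was lower (1 and 2 at an adjusted p under 0.05 alone), with a median of 0.06. MMAB, which makes adenosylcobalamin, fell by 1.31 on the log2 scale. MMACHC, which processes cobalamin for both of its enzymes, had a log2 fold change of 0.24 (edgeR, adjusted p = 0.240).

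**Figure D4:**
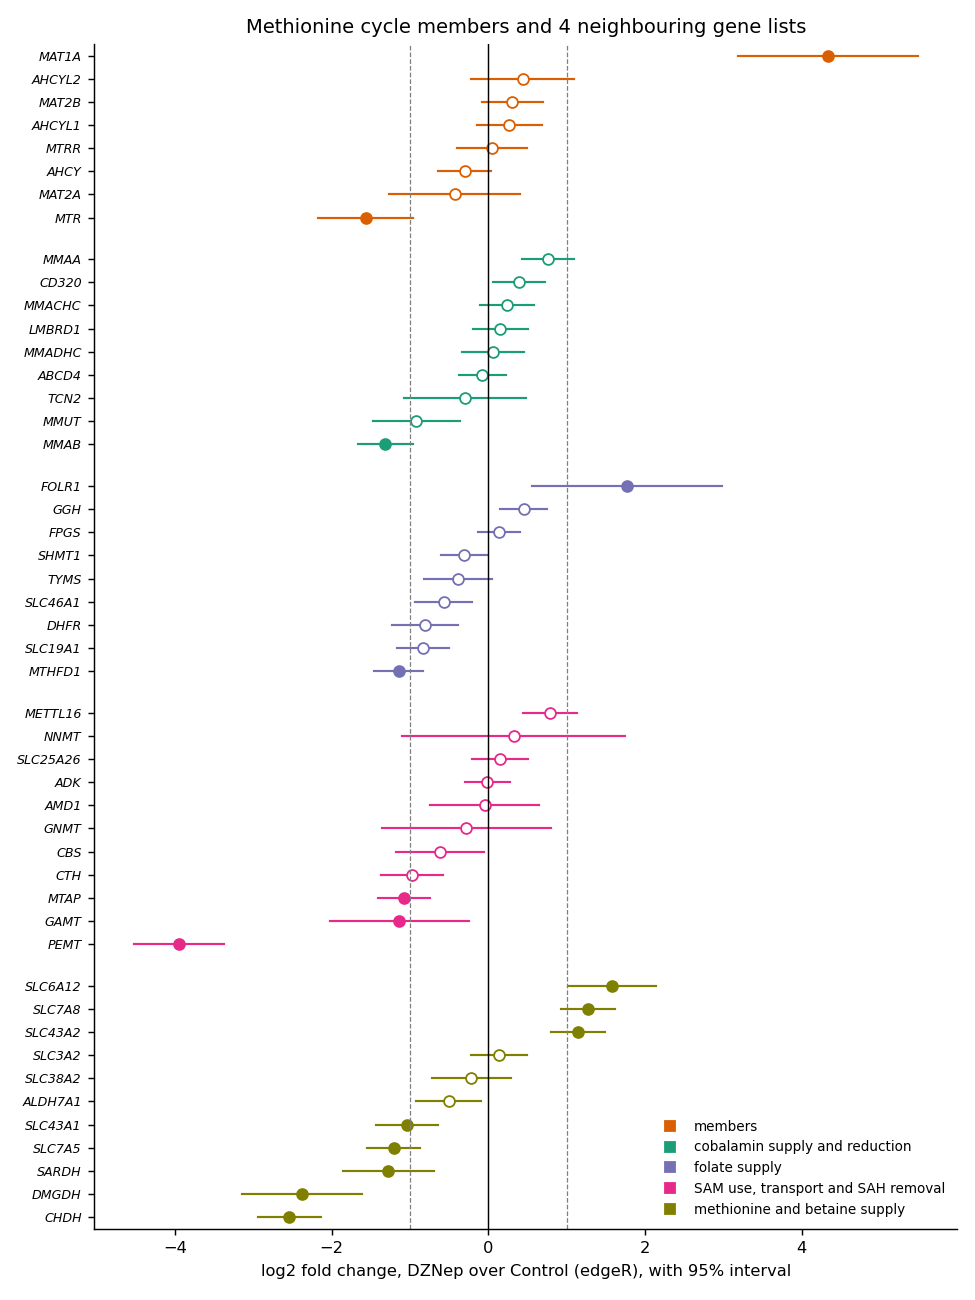
Log2 fold change of DZNep over Control with its 95% interval (edgeR) for the 8 members tested and 40 of the 41 tested genes of the 4 lists, colored by list. Filled points passed both thresholds, and the dashed lines mark a log2 fold change of 1 in each direction. Among the members MAT1A (4.34) and MTR (-1.57) are filled, and among the lists PEMT (-3.95), CHDH (-2.54) and DMGDH (-2.38) are the lowest.

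The tested genes within 50000 bp of MTR and MAT1A were not called. ACTN2 near MTR had a log2 fold change of 0.60 (edgeR, adjusted p = 0.0892) and EIF5AP4 near MAT1A one of -0.81 (edgeR, adjusted p = 0.0810). HMMR, 11173 bp from MAT2B, was lower with a log2 fold change of -1.27.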

How the data were processed

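RNAseq was measured in 8 HEK293T libraries, grouped by the treatment in the labels. For the deposited files, paired 150 bp reads were trimmed (Trimmomatic 0.36), aligned to GRCh38 (STAR 2.5.2b) and counted over exons of each gene (featureCounts, Subread 1.5.2) by the authors. The authors deposited these raw counts for 57500 genes, and a signal table of counts normalized by 1 size factor per library for the 19118 genes with over 80 counts in all. Annotation release, library type and strandedness are not given in the sources used here. Normalized counts in the text are counts divided by those size factors. Symbols (56410 identifiers matched), positions and lengths come from GENCODE and promoters from RefSeq (GRCh38.p14).

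Counts were tested with edgeR 4.0.16 (R 4.3.3), TMM, filterByExpr and Benjamini-Hochberg adjustment over 19171 genes. On simulated counts it recovered 200 of 200 changed genes (log2 size 2) and called 3 unchanged genes, with 18859 genes tested in all. The simulated libraries were independent, with the same variability set for every gene, and only genes above a minimum level were changed. Differences of replicates 1 and 4 from replicates 2 and 3 were not simulated, so the simulation does not give the error rate in these data. Alternatives were DESeq2 1.42.0, limma 3.58.1 on log2(normalized count + 1), other scalings, count filters and lengths, the replicate block and leaving out each library, with subsets of replicates added after seeing the data. Deviations from the group means correlated between same-numbered libraries at 0.16, 0.64, 0.57 and 0.78 for replicates 1 to 4. Libraries of different numbers were not set against these values, so whether the numbers pair the libraries was not settled. Pairs in the text are libraries of the same number. The study states a Wald test in DESeq2 and no design formula, and the main test has no block. Ratios used 0.5 added to each count and were tested where both genes had over 10 reads in every library, which left out MAT1A.

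Members and lists were chosen with earlier results of these data known. Named genes are the 9 members, up to 4 called genes per list with the largest changes, the 5 genes most like MTR and MAT2A, overlapping genes and pseudogenes. Any other gene was chosen with its values in view. The result of 1 list gene is not reported here. Intervals of edgeR log2 fold changes include the spread between libraries, whereas those of shares and of ratios within a replicate number, and limits from 0 reads, cover counting error only.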

Additional observations from a re-analysis of the deposited data

Results flagged for a closer look

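Across 28 groups of 4 libraries (the members' normalized counts and the ratios in each group), 1 held a library far from the rest by Dixon's test, and chance flags about 1 in 20 groups. The log2 ratio of MAT2A to MAT2B was -0.54 in DZNep replicate 4, while the other 3 DZNep libraries lay between -0.23 and -0.20. The gap was 0.916 of the whole range. That library had the lowest MAT2A value of the DZNep group, 2486 normalized counts, and the highest mitochondrial share of it, 10.1%. The part of that share in the ratio was not tested.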

How the results depend on the processing

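MAT1A and MTR kept their direction and their call under every alternative in which they were tested, and the median log2 fold change of all genes moved by less than 0.1 under each scaling. With at least 10 reads required in every library, MAT1A was not tested, so 1 member was called in place of 2, and 1141 in place of 2041 genes were higher. On the adjusted p-value alone, 3656 genes were higher and 4171 were lower, and 22 in place of 14 list genes passed. With the replicate block, AHCY, AHCYL2 and MAT2B passed on the p-value at log2 fold changes of -0.32, 0.48 and 0.32, and no call with both thresholds changed among the members. MTRR changed its sign, without a call, to -0.02 without Control replicate 1, -0.10 without Control replicate 4, -0.02 without DZNep replicate 2 and -0.14 with replicates 2 and 3 alone, in a leave-one-out range of -0.10 to 0.18. MAT2A changed its sign to 0.48 with replicates 1 and 4 alone. The cause was not tested. With the longest transcript as the length, the MAT1A share in the DZNep group was 4.67%, and the AHCYL1 shares were 30.2% (Control) and 38.8% (DZNep). Without length, the AHCYL1 share in the Control was 42.7%, and the AHCYL2 shares were 5.64% and 7.69%. Leaving out each library in turn gave log2 fold changes of 3.95 to 4.91 for MAT1A and -1.74 to -1.38 for MTR, 2 members called, 12 to 15 list genes called, 1936 to 2383 genes higher and 2322 to 2993 lower. For ratios, 4 libraries against 3 allow no p under 0.0571 and 4 pairs none under 0.125, so these designs say nothing of stability.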
